A study of Mus musculus with 12 samples.

Results

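In femur RNA, 9 genes of mouse chromosome 11 that lie on both sides of Dlx3 and Dlx4 were followed: Mrpl27, Ppp1r9b, Samd14, Pdk2 and Itga3 on the Dlx3 side, and Tac4, Fam117a, Slc35b1 and Spop on the Dlx4 side. They were chosen by position, as close neighbours of the Dlx pair, and all 9 were found by symbol among the 18335 symbols present in both deposited tables. The question was whether Dlx4 alone was higher at this locus when Dlx3 was deleted. The study sequenced femur metaphysis (the flared part of the bone beside the growth plate) and diaphysis (the shaft) from 5-week-old males of mixed background. The 4 groups were metaphysis Dlx3Oc-cKO, metaphysis wild type, diaphysis Dlx3Oc-cKO and diaphysis wild type (cKO and WT from here on), with 3 libraries each and 12 in all. "Oc" is understood as the osteocalcin promoter that drives Cre in mature bone-forming cells; the labels do not spell out the alleles, nor whether WT mice carried the floxed allele or Cre. Nothing in the labels says whether each library is 1 animal. The p-values below therefore rest on the spread between libraries, which may in part be technical.

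Dlx3 and Dlx4 encode homeodomain transcription factors of the Distal-less family. Dlx genes stand in pairs with their tail ends facing each other, and the members of a pair are often expressed in the same tissues. Enhancers shared within such a pair have been described, and a shared enhancer or an open chromatin domain can act on further genes nearby, which is why neighbours are read beside the pair. Femur samples of this kind hold bone-forming cells together with marrow, blood, cartilage and muscle, and each of these can contribute RNA to a widely expressed gene.

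Positions are from the GENCODE annotation of the mm9 assembly, since the deposited tables hold no coordinates. Dlx3 (plus strand) and Dlx4 (minus strand) span chr11:94981403-95007577. On the Dlx3 side, Itga3 (minus strand) lies 43.3 kb away, Pdk2 (minus strand) 78.7 kb, Samd14 (plus strand) 94.0 kb, Ppp1r9b (plus strand) 113 kb and Mrpl27 (plus strand) 460 kb. On the Dlx4 side, Tac4 lies 115 kb away, Fam117a 191 kb, Slc35b1 238 kb and Spop 268 kb, all on the plus strand. A stretch of 500 kb to either side held 41 annotated genes, of which 23 were measured in both tables: the Dlx pair, the 9 genes and 12 others. The library kit does not mark the strand, so overlapping genes on opposite strands cannot be told apart: Mrpl27 overlaps Eme1, Pdk2 overlaps Gm11513, Fam117a overlaps Gm11521, Spop overlaps Gm11522 and Dlx4 overlaps A730090H04Rik.

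The 250 bases before the start of Tac4 and of Fam117a are shown because Tac4 separated by genotype in both regions and Fam117a was the member called. The sequences are RefSeq's on GRCm38.p6, plus strand, 5′ to 3′, at chr11:95261279-95261528 for Tac4 and chr11:95336768-95337017 for Fam117a. Capitals mark matches to 3 motifs searched on both strands: the homeodomain cores TAATTA and TAATTG, and the GATA motif AGATAA.
Tac4: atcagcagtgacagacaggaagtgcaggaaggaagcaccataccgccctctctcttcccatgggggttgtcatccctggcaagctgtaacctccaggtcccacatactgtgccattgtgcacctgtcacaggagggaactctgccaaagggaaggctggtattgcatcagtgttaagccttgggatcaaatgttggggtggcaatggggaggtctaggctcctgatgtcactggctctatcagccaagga
Fam117a: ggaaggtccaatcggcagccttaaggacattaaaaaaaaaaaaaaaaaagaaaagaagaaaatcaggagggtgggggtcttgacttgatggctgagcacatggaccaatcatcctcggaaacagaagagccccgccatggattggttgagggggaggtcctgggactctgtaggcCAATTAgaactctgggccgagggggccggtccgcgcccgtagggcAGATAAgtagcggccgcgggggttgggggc
Upstream of Fam117a, TAATTG was found on the opposite strand 75 bases before the start (printed as its reverse complement CAATTA) and AGATAA 30 bases before the start. No match was found upstream of Tac4. Promoter entries existed for 8 of the 9 members, in 10 windows, and no other window of a member held a match. Among 32851 mouse promoters of this length, 4.84% held TAATTA, 7.17% held TAATTG and 9.99% held AGATAA. A match is a description of the letters only.

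All values are RPKM, read numbers divided by transcript length and by library total. Library depth, worked out from the spacing of the lowest values, was 24.7 to 34.9 M reads (M, mega) in the metaphysis and 18.5 to 54.2 M in the diaphysis. Globin genes took 13.5% to 22.1% of the summed RPKM of a metaphysis library and 15.1% to 32.6% of a diaphysis library. A gene was tested where 3 of 6 libraries of the region reached 1 RPKM, by limma on log2(RPKM + 0.1), with Benjamini-Hochberg adjustment over all such genes and a threshold of 0.05.

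The deleted gene and its partner moved in opposite directions. Dlx3 averaged 2.67 ± 0.64 RPKM in metaphysis cKO and 9.11 ± 0.86 RPKM in metaphysis WT (SD, n = 3 each). In the diaphysis Dlx3 averaged 1.16 ± 0.39 RPKM in cKO and 7.97 ± 4.93 RPKM in WT. Dlx4 had 3.21, 3.11 and 3.91 RPKM in metaphysis cKO, against 0.644, 0.506 and 0.579 RPKM in metaphysis WT. In the diaphysis Dlx4 had 1.298, 1.51 and 1.13 RPKM in cKO, against 0.104, 0.338 and 0.299 RPKM in WT. Every cKO value of Dlx4 lay above every WT value of its region, and the cKO mean was 592% of the WT mean in the metaphysis and 532% in the diaphysis. With both regions in 1 fit, Dlx4 was higher in cKO by 2.23 ± 0.21 on the log2 scale (SE, limma adjusted p = 0.00137). Dlx4 reached the minimum level of 1 RPKM only in cKO libraries, so it was tested only through the group where it was high. The same fit without a minimum level gave 2.23 ± 0.19 (SE, limma adjusted p = 0.00141). In bulk samples, a change in the number of cells that express a gene and a change in its RNA per cell cannot be told apart.

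None of the 8 flanking genes tested in the metaphysis was called higher in cKO, and 1, Fam117a, was called lower. Of all 12641 genes tested there, 11.4% were called, 7.51% higher and 3.89% lower. The median log2 fold change was -0.13 over the 8 members and -0.036 over all genes tested. In the diaphysis, 0 of 7 members and 0 of 12540 genes were called by limma. There 86 genes, or 0.686%, had an unadjusted p under 0.05, and none of the members was among them. Dlx3 and Dlx4 were not called in the diaphysis either (limma unadjusted p = 0.00118 and 0.00179). An absent call there therefore tells little about a neighbour. The median there was 0.07 over the 7 members and 0.0022 over all genes. Over both regions together, 0 of 7 members were called, against 27 of 12321 genes, or 0.219%, with 0.179% higher and 0.0406% lower in cKO.

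The intervals of the members tell how large a difference could have gone unseen. In the metaphysis the 95% confidence interval of Dlx4 ran from 1.93 to 2.82 on the log2 scale, while the highest upper bound of any tested member was 1.03, for Itga3. All 8 members' intervals lay below that of Dlx4. In the diaphysis the interval of Dlx4 ran from 1.06 to 3.13, and the highest upper bound of the 7 tested members was 0.80, for Samd14. The size of this gap depends on the 0.1 RPKM added before the logarithm. With 1 RPKM added instead, the diaphysis difference was 0.89 for Dlx4 and 0.26 for Samd14. Over both regions together the interval of Dlx4 ran from 1.79 to 2.68, and the highest upper bound of the 7 members was 0.41, for Pdk2. Tac4 passed the minimum level in neither region and is not among these members.

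**Figure D1:**
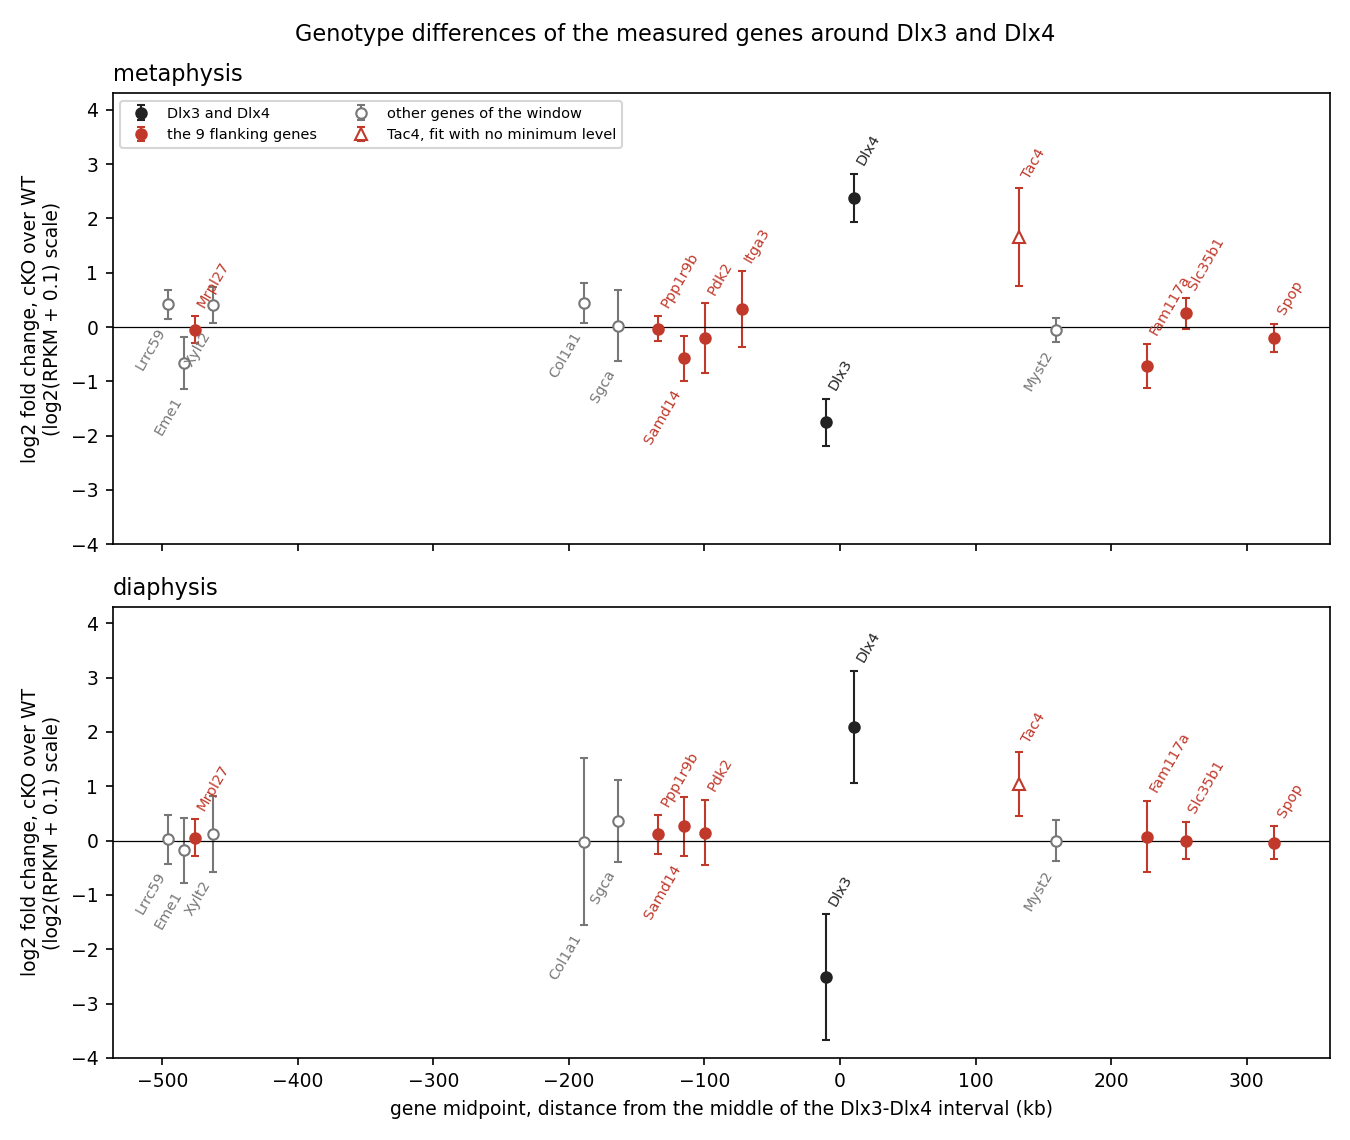
Log2 fold change, cKO over WT, with 95% confidence intervals (limma) of each gene within 500 kb of the Dlx pair that was tested in the region, plotted against the distance of its midpoint from the middle of the pair in kb, metaphysis above and diaphysis below. Apart from Tac4, genes below the minimum level are not shown. Dlx4 is the highest point of both panels and Tac4 (open triangle), which needed a fit without a minimum level, stands between it and the remaining members.

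Tac4 was the member whose genotypes separated in both regions. It encodes the precursor of hemokinin, a tachykinin peptide that in mouse is known from B-lineage cells of the marrow. It had 0.421, 0.0981 and 0.279 RPKM in metaphysis cKO, against 0.0229, 0 and 0 RPKM in metaphysis WT. In the diaphysis it had 0.258, 0.317 and 0.236 RPKM in cKO, against 0.0304, 0.0950 and 0.128 RPKM in WT. Every cKO library was above every WT library of its region, as for Dlx4, but all values were below 1 RPKM.

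These Tac4 values rest on few reads. With a transcript of 1251 bases and the depths above, they correspond to 13, 4 and 11 reads in metaphysis cKO, against 1, 0 and 0 reads in metaphysis WT. In the diaphysis they correspond to 6, 16 and 16 reads in cKO, against 1, 5 and 5 reads in WT. Each value lay within 0.06 of a whole read. A count of 0 allows an expected number of up to 3 reads, which is a level of 0.0691 RPKM in metaphysis WT replicate 2 and 0.0875 RPKM in replicate 3. Summed over libraries and set against their depth, the cKO to WT ratio was 30.6 in the metaphysis (28 reads against 1, exact 95% interval 5.05 to 1250) and 3.04 in the diaphysis (38 against 11, 1.52 to 6.597). These intervals cover counting error only.

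Without a minimum level, the Tac4 difference over both regions was 1.35 ± 0.24 on the log2(RPKM + 0.1) scale (SE, 95% interval 0.83 to 1.87), which understates the change of a gene this low. That interval overlapped the one of Dlx4 in the same fit, 1.81 to 2.66. After adjustment over the whole table it did not pass (limma adjusted p = 0.0672). An exact 2-sided permutation test over both regions, in which genotypes were exchanged within a region, gave p = 0.005 for Tac4, unadjusted, the smallest that its 400 labelings allow. The same p was found for Dlx4 and for Dlx3. Any gene whose genotypes separate in the same direction in both regions gets this p, so it only restates that separation. The test was added after the values were seen. Of 18137 genes, 0.888% had every cKO library above every WT library in both regions, and 0.221% had them below. Among the 5278 genes below the minimum level in both regions the share was 0.872%. Tac4 was the 1 member of 9 with this pattern. B lymphoid markers went the other way in the metaphysis, where 6 of 10 were called lower in cKO, with a summed level of 237 to 296 RPKM in cKO and 369 to 461 RPKM in WT. In the diaphysis that sum was 253 to 411 RPKM in cKO and 276 to 365 RPKM in WT. Osteoblast markers, all 10 measured and none at 0, had 7 called higher in metaphysis cKO, with a summed level of 22814 to 24248 RPKM in cKO and 14380 to 18745 RPKM in WT. In the diaphysis that sum was 10937 to 15736 RPKM in cKO and 4568 to 26959 RPKM in WT. The 4568 RPKM was in diaphysis WT replicate 1, with 18880 RPKM in replicate 2 and 26959 RPKM in replicate 3. Replicate 1 also had the lowest diaphysis WT values of Dlx3, Dlx4 and Tac4, and a globin share of 32.6%. Without it, the diaphysis log2 difference of Dlx4 was 1.75, against 2.09 with it, and 0 genes were called. The part of the B lymphoid and osteoblast markers in the Tac4 difference was not tested.

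**Figure D2:**
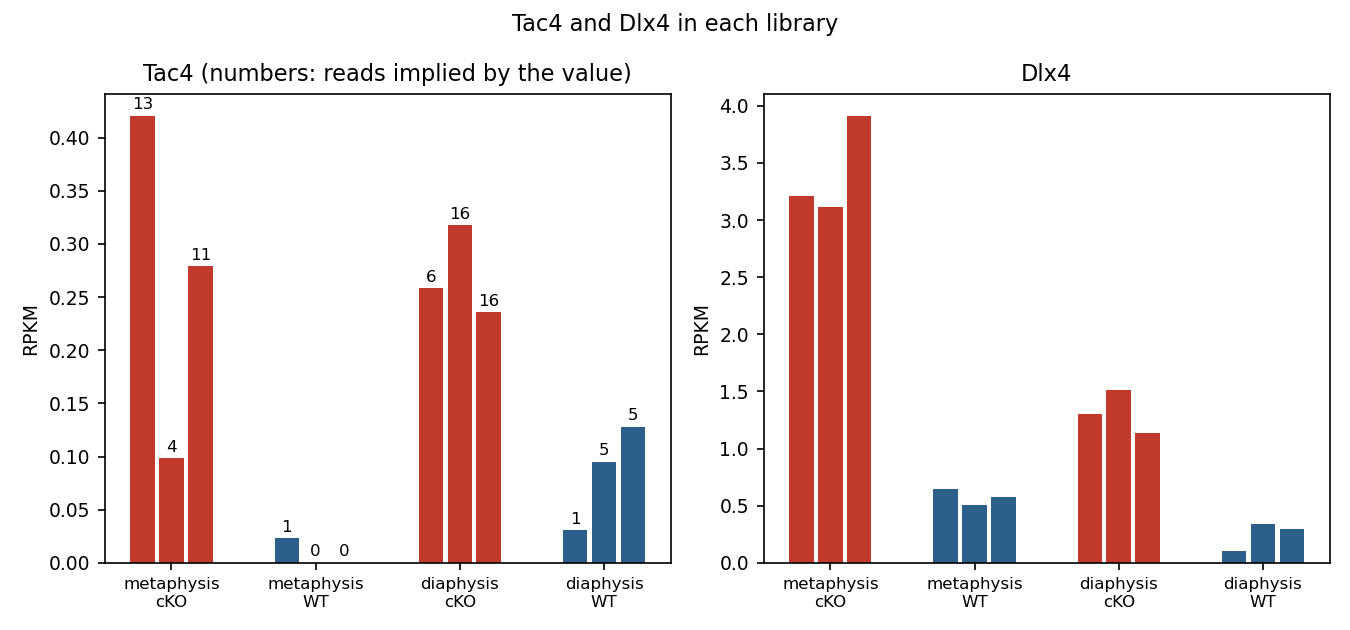
RPKM of Tac4 (left) and Dlx4 (right) in each of the 12 libraries, 1 bar per library, cKO left of WT within each region; numbers above the Tac4 bars are the reads that each value implies. The cKO bars of both genes stand above the WT bars of the same region without overlap, Tac4 on 4 to 16 reads in a cKO library.

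Fam117a, 191 kb from the pair, was the member with the largest fall. It had 48.7, 31.2 and 46.4 RPKM in metaphysis cKO, against 72.1, 68.4 and 63.7 RPKM in metaphysis WT. The groups did not overlap, and the cKO mean of 42.1 ± 9.52 RPKM was 61.9% of the WT mean of 68.1 ± 4.21 RPKM (SD, n = 3 each). The difference was -0.72 ± 0.17 on the log2 scale (SE, limma adjusted p = 0.0401). The call was lost when WT replicate 1, 2 or 3 or cKO replicate 3 was left out, with adjusted p between 0.0775 and 0.115 and log2 differences between -0.80 and -0.67. It was also lost without a minimum level, after quantile normalization, after scaling without globin and with a spread shared over all 12 libraries (adjusted p between 0.0544 and 0.239), with log2 differences between -0.72 and -0.65. In the diaphysis Fam117a had 64.0, 53.4 and 77.9 RPKM in cKO, against 91.9, 55.1 and 45.2 RPKM in WT, and the groups overlapped.

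Samd14 encodes a sterile alpha motif protein that in mouse is known from red cell precursors. It had 20.4, 13.4 and 20.6 RPKM in metaphysis cKO, against 24.2, 27.1 and 28.6 RPKM in metaphysis WT. These groups did not overlap either, but the difference of -0.58 ± 0.18 on the log2 scale did not pass (limma adjusted p = 0.0752). In the diaphysis Samd14 had 41.8, 30.9 and 41.7 RPKM in cKO, against 41.7, 30.9 and 24.2 RPKM in WT, with the groups overlapping. The genotype difference of the metaphysis minus that of the diaphysis was -0.84 ± 0.31 for Samd14 and -0.79 ± 0.36 for Fam117a (SE). Neither differed between regions after adjustment (limma adjusted p = 0.908 for both), and 0 of 12321 genes did, with 495, or 4.02%, at an unadjusted p under 0.05. Samd14 and Fam117a were the 2 of 7 members among these.

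In the metaphysis, 2 of the 8 tested members had groups that did not overlap, Samd14 and Fam117a, both lower in cKO. Among all tested genes of that region the share was 37.1%, with 18.7% higher and 18.4% lower in cKO. In the diaphysis this was 0 of the 7 tested members, where the share among tested genes was 3.03%, with 2.24% higher and 0.789% lower in cKO. Tac4, below the minimum level, is in neither count.

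Markers of other cell types are set beside both genes. Of 9 measured markers of the erythroid lineage, 3 were called lower in metaphysis cKO and none was at 0. Their summed level without globin was 422 to 765 RPKM in metaphysis cKO and 1008 to 1221 RPKM in metaphysis WT. In the diaphysis the sum was 1063 to 1479 RPKM in cKO and 1044 to 2299 RPKM in WT. B lymphoid markers, given above beside Tac4, had 6 of 10 called lower in metaphysis cKO. The lowest Fam117a and Samd14 values of the series were in metaphysis cKO replicate 2, the library with the lowest erythroid sum. The highest Fam117a value was in diaphysis WT replicate 1, the library with the highest sum (2299 RPKM). Samd14 was highest in diaphysis cKO replicate 1, at 41.80 RPKM with an erythroid sum of 1446 RPKM. In diaphysis WT replicate 1 it had 41.71 RPKM. Among 12321 genes, the one most like Samd14 over the 12 libraries, with levels centred within each region, was Epor, the erythropoietin receptor and itself one of these markers (Pearson r = 0.988). Next were Ifrd2 (0.986) and Hmgb3 (0.977). The genes most like Fam117a were Dck, a deoxynucleoside kinase (0.988), 1110020G09Rik (0.984) and Gclm, a subunit of the enzyme that starts glutathione synthesis (0.982). These coefficients were picked as the highest of many and share library and depth. The part of red cell or B cell content in the 2 differences was not tested.

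**Figure D3:**
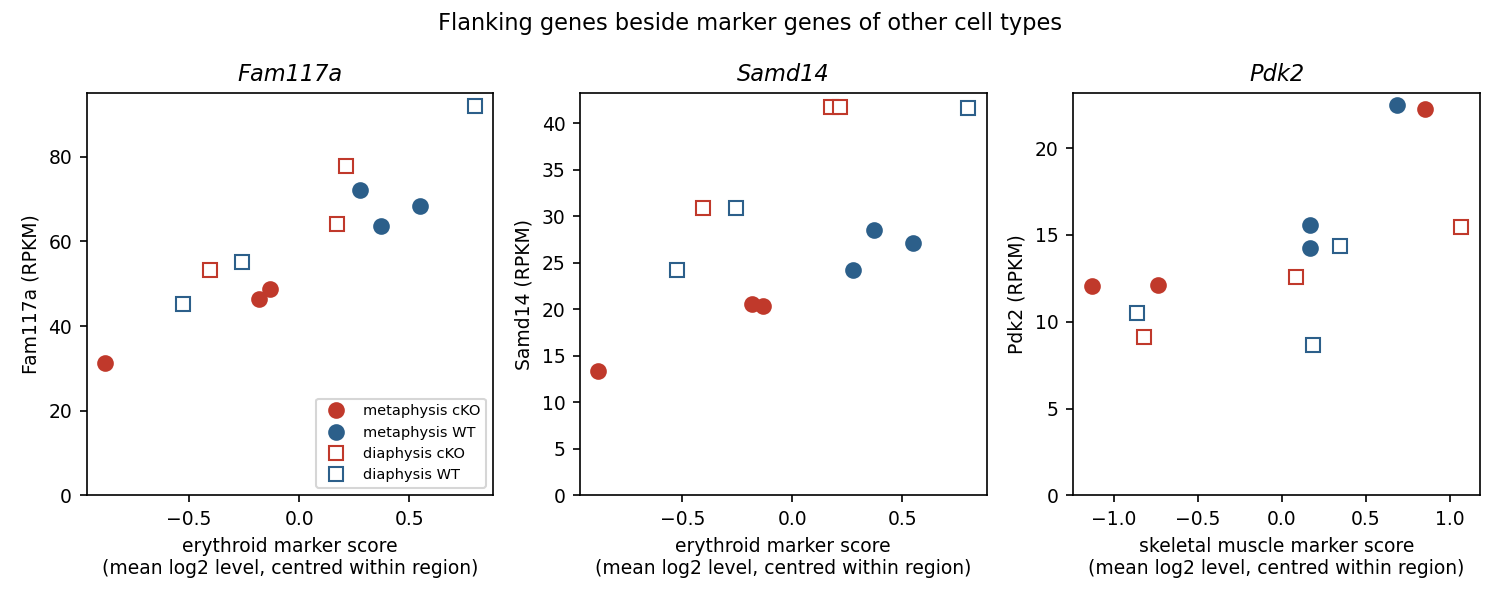
RPKM of Fam117a and Samd14 against the erythroid marker score, and of Pdk2 against the skeletal muscle marker score, in each library; a score is the mean log2 level of the markers, centred within the region. Metaphysis libraries are filled circles and diaphysis libraries open squares, cKO red and WT blue. In the pairings shown, a selection of the members and marker lists, libraries with more of a marker set tend to lie higher within a region.

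Pdk2, which encodes a kinase that inhibits the pyruvate dehydrogenase complex, varied more between libraries than between genotypes. It had 12.1, 22.3 and 12.04 RPKM in metaphysis cKO, against 15.6, 22.5 and 14.3 RPKM in metaphysis WT. In the diaphysis it had 15.4, 12.6 and 9.10 RPKM in cKO, against 8.69, 14.4 and 10.5 RPKM in WT. The groups overlapped in both regions. Within each of the 4 groups, the library highest in Pdk2 was also the one with the highest summed level of 10 skeletal muscle markers: 11402 RPKM in metaphysis cKO replicate 2, 9514 RPKM in metaphysis WT replicate 2, 7533 RPKM in diaphysis cKO replicate 1 and 4783 RPKM in diaphysis WT replicate 2. The genes most like Pdk2 were Ppp2r3a, a regulatory subunit of protein phosphatase 2A (Pearson r = 0.991), Hrc, a calcium-binding protein of the sarcoplasmic reticulum (0.972), and Bin1, which shapes membrane tubules in muscle (0.963). The closest gene was 1300001I01Rik for Mrpl27 (0.888), Aldh9a1 for Ppp1r9b (0.912) and Zfp106 for Spop (0.918). High coefficients were thus found for these members too. What muscle content contributes to the Pdk2 level was not tested.

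Itga3, the nearest of the 9 to the Dlx pair, encodes the alpha-3 subunit of a laminin-binding integrin and was low throughout. It had 0.914, 1.53 and 1.02 RPKM in metaphysis cKO, against 1.14, 0.913 and 0.644 RPKM in metaphysis WT. In the diaphysis it had 0.664, 0.673 and 0.675 RPKM in cKO, against 0.469, 0.825 and 0.869 RPKM in WT, below the minimum level in every library. The groups overlapped in both regions. The metaphysis difference was 0.33 ± 0.30 on the log2 scale (limma adjusted p = 0.487). Its interval, -0.37 to 1.03, still allows a rise of that size.

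Ppp1r9b and Mrpl27 gave the smallest differences in the metaphysis. Ppp1r9b encodes spinophilin, which directs protein phosphatase 1 to actin and other targets. It averaged 41.0 ± 4.05 RPKM in metaphysis cKO and 41.7 ± 1.49 RPKM in metaphysis WT, and 51.8 ± 6.94 RPKM in diaphysis cKO and 47.6 ± 1.996 RPKM in diaphysis WT (SD, n = 3 each). Mrpl27, a protein of the large mitochondrial ribosomal subunit, averaged 28.3 ± 2.51 RPKM in metaphysis cKO and 29.4 ± 2.69 RPKM in metaphysis WT. In the diaphysis Mrpl27 averaged 32.4 ± 3.40 RPKM in cKO and 31.1 ± 1.25 RPKM in WT. Over both regions the 95% intervals of the log2 difference were -0.14 to 0.23 for Ppp1r9b and -0.17 to 0.18 for Mrpl27.

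Slc35b1, which encodes an endoplasmic reticulum transporter that exchanges ATP for ADP, had 32.0, 33.1 and 35.2 RPKM in metaphysis cKO, against 27.0, 24.8 and 33.0 RPKM in metaphysis WT. The highest WT library overlapped the cKO range, and the difference of 0.25 ± 0.12 on the log2 scale did not pass (limma adjusted p = 0.204). In the diaphysis Slc35b1 averaged 29.1 ± 2.24 RPKM in cKO and 29.1 ± 2.87 RPKM in WT. The gene most like it over the 12 libraries was Lrrc59, a ribosome-binding protein of the same membrane (Pearson r = 0.939), which lies in the same stretch on the Dlx3 side.

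Spop, the substrate adaptor of a Cullin 3 ubiquitin ligase, had the highest level of the members. It had 65.2, 65.8 and 54.0 RPKM in metaphysis cKO, against 69.3, 77.4 and 65.7 RPKM in metaphysis WT. In the diaphysis it had 74.6, 73.5 and 76.2 RPKM in cKO, against 75.1, 77.9 and 77.0 RPKM in WT. The groups overlapped in both regions, with the cKO mean at 87.2% of the WT mean in the metaphysis and 97.5% in the diaphysis. The exact permutation test over both regions gave p = 0.025 for Spop, unadjusted, which ranged from 0.02 to 0.15 when each library was left out in turn. The limma fit over both regions gave -0.12 ± 0.08 (SE, adjusted p = 0.581). The remaining 7 members had exact p between 0.185 and 0.98.

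**Figure D4:**
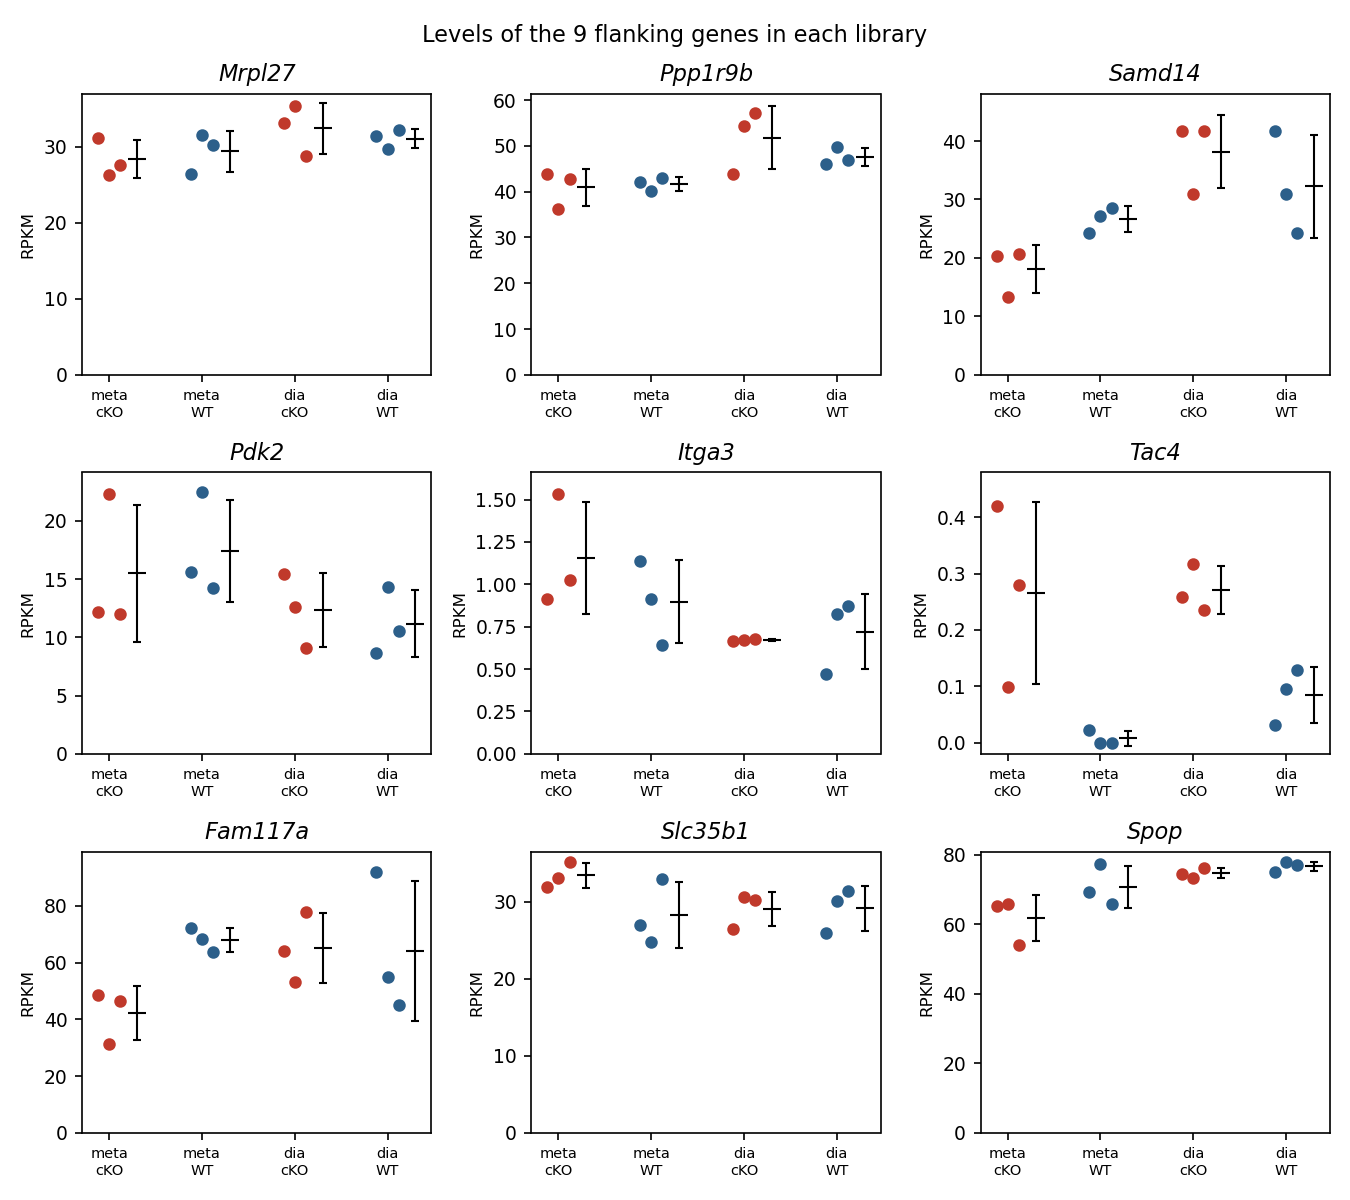
RPKM of the 9 flanking genes in each of the 12 libraries, with the mean and SD of the 3 libraries of a group as a black bar beside the points; groups are metaphysis (meta) and diaphysis (dia), cKO red and left of WT in blue. Tac4 separates by genotype in both regions, Fam117a and Samd14 in the metaphysis, and the other 6 overlap in both.

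The members kept much the same order of level in the 4 groups. Spop had the highest mean, then Fam117a and Ppp1r9b, while Pdk2, Itga3 and Tac4 were the lowest in that order. In metaphysis cKO the ranges of Fam117a and Ppp1r9b overlapped, as did those of Samd14 and Pdk2. In metaphysis WT those of Spop and Fam117a overlapped, and those of Mrpl27, Slc35b1 and Samd14 one after the other. In both diaphysis groups the ranges of Spop, Fam117a and Ppp1r9b overlapped one after the other, as did those of Samd14, Mrpl27 and Slc35b1.

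Among the 12 other measured genes of the stretch, 6 passed the minimum level and 0 were called in either region or over both. The largest metaphysis differences were -0.66 for Eme1, a subunit of a DNA-cutting nuclease that overlaps Mrpl27 (limma adjusted p = 0.0782), 0.45 for the collagen gene Col1a1 (0.107), 0.42 for Lrrc59 (0.0590) and 0.41 for Xylt2, a xylosyltransferase (0.0984). Metaphysis groups did not overlap for Lrrc59, Xylt2 and Col1a1, higher in cKO, or for Eme1, lower in cKO. Among all genes tested there, groups did not overlap for 18.7% higher and 18.4% lower in cKO. In the metaphysis none of the 6 intervals reached that of Dlx4, the highest upper bound being 0.81 for Col1a1. In the diaphysis the wider intervals of Col1a1 (upper bound 1.53) and of Sgca, a muscle membrane gene (1.11), reached into that of Dlx4. No measured gene lay between the Dlx pair and either nearest member. Taking 1 Mb to either side, 3 of 31 tested genes were called higher in metaphysis cKO and 1, Fam117a, lower, and 0 of 29 were called in the diaphysis. Over all 12641 genes tested in the metaphysis, 7.51% were called higher and 3.89% lower. Of 12540 diaphysis genes, 0 were called. The 3 window genes called higher were chosen for mention after their values were seen. Phospho1, a phosphatase that starts bone mineral formation, lay 678 kb away on the Dlx4 side and averaged 215 ± 7.96 RPKM in cKO and 90.9 ± 16.0 RPKM in WT (limma adjusted p = 0.00907). Abi3, which overlaps Phospho1 on the other strand, averaged 25.3 ± 2.38 RPKM in cKO and 11.8 ± 2.22 RPKM in WT (0.0117), and Acsf2, 518 kb away on the Dlx3 side and overlapping the cartilage gene Chad, 11.8 ± 0.55 RPKM in cKO and 8.65 ± 0.77 RPKM in WT (0.0335).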

How the data were processed

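RNA from 12 libraries was sequenced from TruSeq RNA libraries, per the labels' protocols. The authors deposited 1 table per region with RPKM per RefSeq transcript, per the file headers. Bowtie 0.12.7.0, TopHat 1.3.2, CASAVA 1.8.2 and Partek 6.6 are named in the submitters' processing notes, with the build mm9, without roles. No source used here gives the annotation release or the filters. The tables were made separately, so genotypes were compared within a table. RPKM corrects for length and depth but not for composition, such as globin content.

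Transcripts were summed per symbol (18778 metaphysis symbols, 19067 diaphysis symbols); each member had 1 transcript row. Depth was computed from the lowest values, of which 70.3% to 74.6% per library lay within 0.1 of a whole read, where chance gives 20%. Counts were therefore not rebuilt for all genes, and the planned count test was not used. Log2(RPKM + 0.1) was fitted in R 4.3.3 by limma 3.58.1, 2-sided and with trended variance, per region, and in 1 fit of all libraries for the effect over both regions and the difference between regions. Genes needed at least 1 RPKM in 3 of 6 libraries. Every adjusted p is from these fits or, where stated, from the same model under another setting; the fits per region were tested on simulated data. Libraries were grouped by the labels; replicate numbers follow record order and pair nothing. Other pseudocounts, filters, scalings, transcript choices and windows were tried, and each library was left out in turn.

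The members and lists were chosen with earlier results of these data known. The exact test, the fit over both regions without a minimum level and the fits with a minimum of 0.1 RPKM were added after values were seen. The fits per region without a minimum level were planned. By plan, named genes were the members, Dlx3, Dlx4 and window genes that passed, lay nearest or overlapped a member. The plan also held the 3 genes most alike to each member kept in both regions. For Mrpl27, Ppp1r9b, Slc35b1 and Spop only the closest is given. Outside the plan, Col1a1, Xylt2 and Sgca were named for the size of their difference or interval. Phospho1, Abi3 and Acsf2 were named for their calls within 1 Mb. Of the fixed marker lists, chondrocyte genes had 6 of 9 called higher in metaphysis cKO, and neutrophil genes 1 of 10. Summaries used Python 3.11.15, pandas 2.3.3, numpy 2.4.6, scipy 1.17.1 and matplotlib 3.10.9.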

Additional observations from a re-analysis of the deposited data

How the results depend on the processing

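The call of Fam117a in the metaphysis was the 1 member call, and it depended on the processing. No member was called (0) without a minimum level (log2 difference -0.72, adjusted p = 0.0883), after quantile normalization (-0.65, 0.0561), after scaling without globin (-0.71, 0.0544) or with the spread shared over 12 libraries (-0.72, 0.239). The count of called members ran from 0 to 1 when a library was left out. Dlx4 kept its direction under each setting whose minimum it passed, with a smaller log2 difference at a pseudocount of 1 (1.48 in the metaphysis, 0.89 in the diaphysis, 1.19 over both). All genes called in the metaphysis numbered 1441, against 789 without a minimum level, 8 with the shared spread and 163 to 1424 with a library left out. Over both regions 27 genes were called, against 15 to 99 with a library left out. The difference between regions had 0 calls, against 0 to 241, the 241 without diaphysis WT replicate 1. The causes were not tested.

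Small differences changed sign. Quantile normalization gave 0.0084 for Mrpl27 and 0.037 for Ppp1r9b in the metaphysis, and scaling without globin gave 0.018 for Slc35b1 in the diaphysis. With a library left out, the metaphysis log2 difference ran from -0.13 to 0.0027 for Mrpl27 and -0.082 to 0.053 for Ppp1r9b. The diaphysis one ran from -0.15 to 0.37 for Fam117a, -0.011 to 0.14 for Mrpl27, -0.032 to 0.35 for Pdk2 and -0.083 to 0.065 for Slc35b1. Over both regions it ran from -0.033 to 0.034 for Mrpl27 and -0.14 to 0.076 for Pdk2, with exact p from 0.495 to 0.965 and 0.45 to 0.855. The window median was -0.044 at 200 kb and -0.017 at 1 Mb, against -0.041, in the metaphysis, and 0.114 and 0.055, against 0.055, in the diaphysis. No paired analysis was possible because each library title carries its own number, and none is shared between groups. The labels do not say what these numbers stand for. Depth limits Tac4, which rests on at most 16 reads in a library.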
